A study of Mus musculus with 11 samples.

Results

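The core planar cell polarity genes of the mouse were examined for binding of the transcription factors RFX1, RFX2 and RFX3 in cultured ependymal cells. The set holds 10 genes: Celsr1, Celsr2 and Celsr3, Fzd3 and Fzd6, Vangl1 and Vangl2, Prickle1 and Prickle2, and Wdpcp. A ChIP-seq peak was counted for a gene when its summit, the base of strongest signal, lay inside the annotated gene or within 50 kb of it. By this rule 38 of 18008 peaks were near the 10 genes: 16 of 7440 RFX1 peaks, 3 of 1250 RFX2 peaks and 19 of 9318 RFX3 peaks. Peaks of different lists that shared at least 1 bp were merged into regions, which left 22 regions near core genes among 11236 in the series.

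The groups were RFX1 ChIP, RFX2 ChIP and RFX3 ChIP with 2 samples each, and input chromatin with 2 samples for RFX1, 2 for RFX2 and 1 for RFX3. Every sample came from ependymal cells grown and differentiated outside the animal, taken from the lateral walls of the brain of OF1 wild-type mice. The age label is P0 while the tissue label calls the brain embryonic, and the RFX2 antibody lot differed between the replicates. No mutant, treated or second cell type group was compared, and the lists hold no expression values against which the cell identity could be checked. The authors deposited 1 peak list per factor with the replicates already combined, so no value has a replicate error, the depth is unknown and no test was made.

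Planar cell polarity is the alignment of cells, and of their cilia or hairs, along the plane of a sheet. The core proteins sit at cell borders, where Frizzled and Dishevelled gather on one side and Van Gogh-like and Prickle on the other, joined across the border by Celsr cadherins. In ependymal cells this system orients the beat of motile cilia that move cerebrospinal fluid, and RFX factors are known regulators of cilia genes that bind an element called the X-box.

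All 10 core genes had at least 1 RFX region, against 52.1% of all protein-coding genes. Among genes at least as long as the shortest core gene the share was 62.9%. Most regions near core genes lay within the gene body. Of the 22 regions, 14 (63.6%) were inside a core gene. An internal region was present in 8 of the 10 genes, against 18.0% of all genes and 34.5% of genes at least as long as the shortest core gene. Within 1 kb of an end of a core gene lay 2 regions, the Wdpcp region and a weak RFX3 peak at Prickle1. Regions held by all 3 lists occurred inside 3 of the 10, Fzd3, Vangl2 and Prickle2, against 3.22% of all genes.

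**Figure D1:**
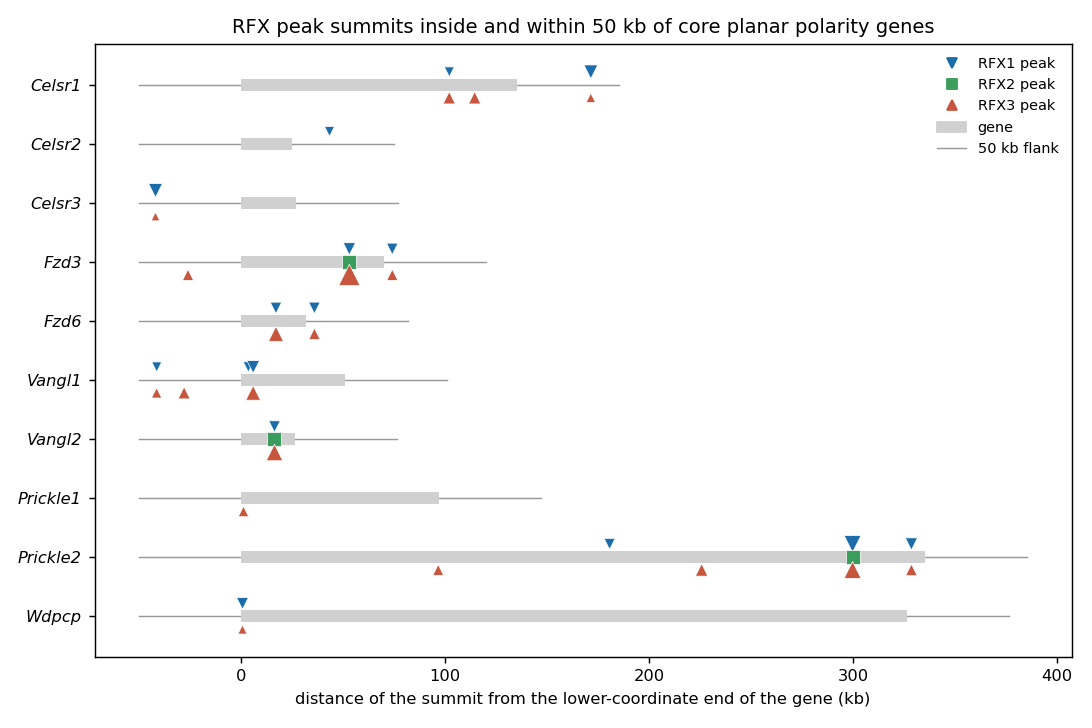
Summits of RFX peaks (RFX1 downward triangles, RFX2 squares, RFX3 upward triangles; larger symbols for higher fold enrichment) along each core gene (grey bar) and its 50 kb flanks (line), in kb from the end with the lower coordinate. The 3 squares mark the RFX2 peaks in Fzd3, Vangl2 and Prickle2, and the Wdpcp summits sit at the left end of the lowest bar.

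A RefSeq promoter window spans 250 bases before to 50 after a listed gene start. Of the 10 such windows of core genes, 1 held an RFX summit, that of Wdpcp, with RFX1 and RFX3. Over all 32851 such windows, 3.899% held an RFX1 summit, 1.026% an RFX2 summit and 3.601% an RFX3 summit. For RFX1 and RFX3, 1 of 10 was thus not below the general share. Wdpcp, a ciliary effector of planar polarity, is the core gene whose listed start carries RFX summits, so its whole window is shown (GRCm38.p6, chr11:21572031-21572330, plus strand). Capitals mark the stretch nearest to the X-box written as GTTGCC, then 0 to 3 bases, then GGNAAC, searched on both strands. A pair of shorter stretches is shown for contrast. One is from an internal start of Prickle2 (minus strand) that has the best match among the core genes but no peak over it. The other is from the start of Ip6k2 (plus strand), the gene at which the peaks nearest to Celsr3 lie.
Wdpcp start window: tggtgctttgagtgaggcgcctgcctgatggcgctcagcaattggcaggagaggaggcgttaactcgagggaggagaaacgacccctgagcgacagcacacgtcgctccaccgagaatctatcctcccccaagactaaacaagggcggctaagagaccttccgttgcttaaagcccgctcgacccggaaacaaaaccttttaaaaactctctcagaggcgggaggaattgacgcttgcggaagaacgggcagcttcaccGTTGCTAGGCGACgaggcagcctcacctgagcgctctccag
Prickle2 internal start, stretch within chr6:92567317-92567616: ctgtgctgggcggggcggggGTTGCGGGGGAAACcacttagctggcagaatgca
Ip6k2 start, stretch within chr9:108783562-108783861: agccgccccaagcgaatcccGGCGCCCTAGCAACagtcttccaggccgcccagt

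Of the 11 fixed letters of this element, the Wdpcp stretch (chr11:21572290-21572302) departed at 2. The RFX1 summit was 25 bp and the RFX3 summit 11 bp from its centre. The Ip6k2 stretch departed at 3 letters, with the RFX1 summit 7.5 bp and the RFX3 summit 0.5 bp from its centre. The Prickle2 stretch departed at 1 letter, and the nearest summit to that start was 15735 bp away. Thus the closest spelling among core gene starts was not where a peak was called.

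Forms with several mismatches were common in promoters. Among all 32851 promoter windows of that length, 0.551% held the full element, 3.45% a form with at most 1 mismatch, 20.9% with at most 2 and 80.2% with at most 3. Windows with an RFX1 summit held a form with at most 2 mismatches in 74.6% of 1281 cases, and those with an RFX3 summit in 76.2% of 1183. The 6 core genes in the promoter table had 10 windows, whose best forms departed at 1 to 4 letters. GTTGCC alone, on either strand, was in 1 of the 10, a Prickle1 window, against 12.5% of all windows. GTTGCC or GTTACC was in 2 of the 10, at Prickle1 and Celsr3, against 18.6% of all windows. The relaxed search was chosen after these sequences had been seen. A match is a description and not a binding site.

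The values that follow are the authors' own for each peak. Fold enrichment is the ratio of signal at the peak to background, −log10 q is the caller's confidence, and the place of a peak is its rank by −log10 q as a percentage of its own list, with the best peak lowest. The annotation used gives gene ends but not exons, so internal sites are placed by distance only.

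Of the Celsr genes, which encode the seven-pass Flamingo-type cadherins, Celsr1 alone had RFX regions within its gene body. Celsr1 (chr15:85898758-86034223) had 3 regions. The one at chr15:86000776-86001084 held an RFX1 peak with a fold of 4.99 and a −log10 q of 13.7, and an RFX3 peak with a fold of 9.05 and a −log10 q of 21.5. It lies 33318 bp inside the upper end of the gene, and its RFX1 peak was near the bottom of the RFX1 list at 91.2%. The next, at chr15:86013207-86013441, was an RFX3 peak alone, with a fold of 9.06, a −log10 q of 26.5 and a place of 37.7%. The remaining region, 36075 bp outside Celsr1 and inside the neighbour Gramd4, had the strongest RFX1 peak of the 3, with a fold of 12.04 and a −log10 q of 66.4. Its RFX3 peak had a fold of 4.29 and a −log10 q of 20.6. The RFX1 list thus gave its better Celsr1 peak outside the gene and the RFX3 list its better-scoring ones inside.

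Celsr2 and Celsr3, which in the mouse are needed for ependymal cilia to form, had no region within the gene. Celsr2 (chr3:108390848-108416069) had 1 RFX1 peak at chr3:108433720-108433919, with a fold of 4.93, a −log10 q of 13.3 and a place of 93.5%. That peak lies 17727 bp away from Celsr2 and inside Sars, which encodes seryl-tRNA synthetase. Celsr3 (chr9:108826023-108852969) had 1 region, chr9:108783407-108783857, at 42330 bp from the gene. The RFX1 peak there had a fold of 12.2 and a −log10 q of 92.9, the best RFX1 score of all 16 near core genes, at rank 716. The RFX3 peak had a fold of 3.22 and a −log10 q of 17.0, at 58.5% of its list. Both summits were at an end of Ip6k2, an inositol hexakisphosphate kinase gene, at 71 and 63 bp. The nearest protein-coding gene was thus not a Celsr gene for either region.

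Both Frizzled receptor genes had an internal region, and the RFX3 peak was the better placed one in each. Fzd3 (chr14:65192441-65262463), a receptor required in the mouse for axon guidance, had all 3 factors at chr14:65245360-65245880. The RFX1 fold there was 9.01, the RFX2 fold 11.1 and the RFX3 fold 32.2, with −log10 q values of 57.2, 29.9 and 102.564 in that order. The RFX3 peak ranked 248 in its list, at 2.66%, and its fold was the highest of the 19 RFX3 peaks near core genes. RFX1 stood at 24.1% and RFX2 at 50.8%. The summits, at 65245583, 65245599 and 65245604, were within the gene by 16880, 16864 and 16859 bp from its upper end.

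The other Fzd3 regions lay outside the gene. A weak RFX3 peak stood alone between genes at chr14:65166375-65166607, with a fold of 6.77 and a −log10 q of 13.9. At chr14:65266308-65266826, 4161 bp from Fzd3, RFX1 had a fold of 7.58 and a −log10 q of 68.4, and RFX3 had a fold of 6.86 and a −log10 q of 40.8. Those summits were 6 and 34 bp from an end of the neighbouring F-box gene Fbxo16, so the end that carried the peaks belonged to the neighbour.

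Fzd6 (chr15:39006149-39038192), which orients hair follicles in mouse skin, had a region inside and another just outside. Inside, at chr15:39023168-39023449, RFX1 had a fold of 7.53 with a −log10 q of 24.6, and RFX3 had a fold of 14.7 with a −log10 q of 45.2. RFX3 stood at 18.8% of its list and RFX1 at 58.1%. At chr15:39041980-39042314, which is 3961 bp outside, the folds were 7.72 for RFX1 and 7.56 for RFX3, with −log10 q values of 35.6 and 27.1. The end nearest to those summits, at 38 and 14 bp, was that of the long non-coding RNA Gm7194.

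Both Van Gogh-like genes had well-scored sites in the gene body. Vangl2 (chr1:172000960-172027318), a member known for orienting ependymal cilia in the mouse, had a single region, chr1:172016903-172017335, held by all 3 lists. RFX3 had a fold of 18.3 and a −log10 q of 157.761 there, the best score of any peak near a core gene, at rank 39 or 0.419% of its list. RFX1 had a fold of 7.47 and a −log10 q of 41.1 at 35.3%, and RFX2 had a fold of 11.5 and a −log10 q of 40.9 at 29.9%. The RFX1 and RFX3 summits were on the same base, 172017121, and the RFX2 summit was at 172017152. They lay 10174 and 10143 bp downstream of the listed start, and nothing was called at the start itself.

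Vangl1 (chr3:102153583-102204744) had 4 regions, the most for its length among the core genes, at 2.65 per 100 kb of gene and flanks. The strongest, at chr3:102159406-102159758, had a fold of 9.73 and a −log10 q of 70.2 for RFX1, and a fold of 13.9 and a −log10 q of 57.3 for RFX3. They stood at 17.4% and 12.3% of their lists. An RFX1 peak stood alone nearby at chr3:102157076-102157335, with a fold of 5.61 and a −log10 q of 20.05. The outer pair of regions was inside the neighbour Casq2, a calcium-store protein of heart muscle. The one at chr3:102112085-102112494 held the lowest-scoring RFX1 peak near a core gene, with a fold of 5.08 and a −log10 q of 12.03, and an RFX3 peak with a fold of 5.55 and a −log10 q of 10.8. The other, at chr3:102125539-102125840, held an RFX3 peak with a fold of 8.66 and a −log10 q of 21.3. Of the 4 regions, 2 thus lay in Vangl1 and 2 in the neighbour.

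The Prickle genes, which encode cytoplasmic partners of the Van Gogh-like proteins, differed in how many regions they held. Prickle2 (chr6:92370891-92706334) had 5, all inside the gene, and 1.96% of protein-coding genes of any length had at least as many. Its window of 435.4 kb is long, and its density of 1.15 regions per 100 kb was exceeded by Vangl1, Fzd3, Fzd6 and Celsr1. At chr6:92670449-92671002 all 3 factors were present, with an RFX1 fold of 19.0, an RFX2 fold of 14.7 and an RFX3 fold of 19.6. Their −log10 q values were 84.4, 38.1 and 51.3, which placed them at 11.9%, 34.4% and 15.1% of their lists. This was the highest fold among the 16 RFX1 peaks and among the 3 RFX2 peaks near core genes. The summits were 35453 bp (RFX1), 35461 bp (RFX2) and 35446 bp (RFX3) downstream of the nearest listed start.

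Closer to that start, 6607 bp downstream, the Prickle2 region chr6:92699416-92699841 had a fold of 8.87 for RFX1 and 7.81 for RFX3, with −log10 q values of 31.1 and 28.4. The other 3 regions were single-list peaks with a −log10 q below the median of their list. An RFX1 peak at chr6:92551507-92551762 had a fold of 6.95 and a −log10 q of 13.1. RFX3 peaks at chr6:92467515-92467673 and chr6:92596544-92596859 had folds of 6.41 and 9.41, with −log10 q values of 9.04 and 16.3. Prickle1 (chr15:93499111-93596266) had an RFX3 peak only, at chr15:93499978-93500163, with a fold of 5.84, a −log10 q of 12.2 and a place of 77.9%. It lies 969 bp from the lower end, which is the 3′ end, since the listed Prickle1 starts are on the minus strand.

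Wdpcp (chr11:21571969-21898687), whose protein is a homologue of fly Fritz and part of a ciliary complex with Intu and Fuz, was the core gene bound at its start. The region chr11:21572119-21572479 held an RFX1 peak with a fold of 7.99 and a −log10 q of 46.4, and an RFX3 peak with a fold of 3.80 and a −log10 q of 36.5. They stood at 30.9% and 25.9% of their lists. The summits were 40 bp (RFX1) and 26 bp (RFX3) downstream of the listed start, near the capitals of the window printed above. They were also 387 and 373 bp from an end of Mdh1, the gene of cytosolic malate dehydrogenase, so the peaks cannot be given to one of the 2 genes. This region is 1 of 4 near core genes that lay within 1 kb of an end of any protein-coding gene. The others were those at Ip6k2, Fbxo16 and Prickle1.

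**Figure D2:**
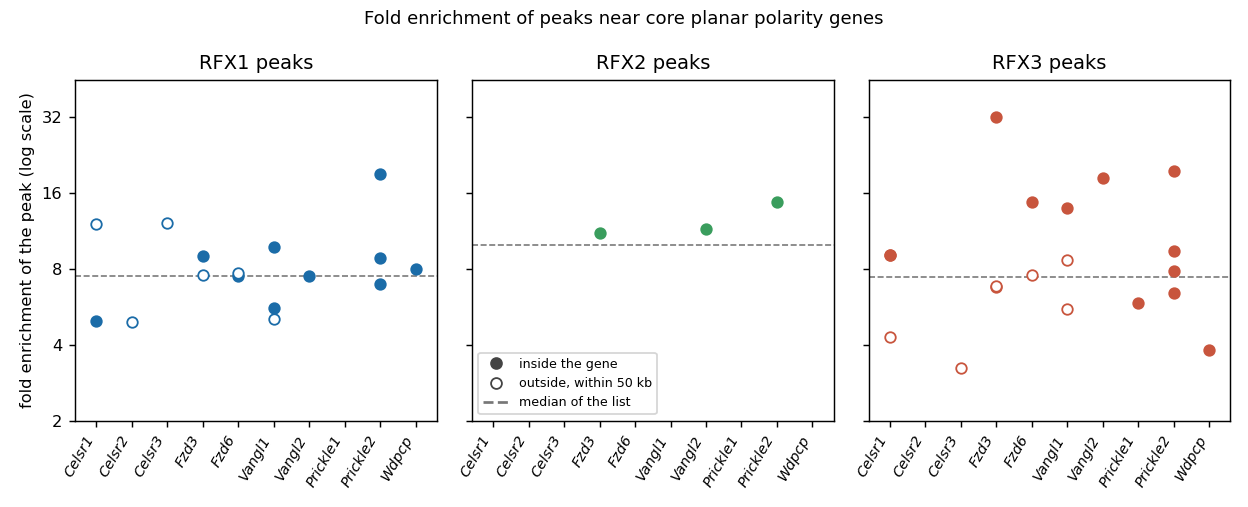
Fold enrichment (log scale) of each peak near a core gene, for the RFX1 (left), RFX2 (middle) and RFX3 (right) list, filled where the summit is inside the gene and open where it is outside; the dashed line is the median of the whole list. The RFX3 peak in Fzd3 is the highest point at 32.2, and the Celsr1 gene body peaks of RFX3, at 9.05 and 9.06, overlie each other.

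Peaks near core genes were of ordinary strength for their lists. The median fold of RFX1 peaks was 7.65, against 7.51 over the whole list. RFX2 peaks had 11.5, against 9.96, and RFX3 peaks 7.81, against 7.45. The median −log10 q was 38.4, 38.1 and 26.5 near core genes, against 29.1, 30.1 and 19.9 over the lists. The median place was 38.1% (RFX1), 34.4% (RFX2) and 37.7% (RFX3), a little above the middle of each list. The range ran from 9.62% to 99.8% for RFX1 and from 0.419% to 98.7% for RFX3, so single sites, not the set, stood near the top. Their median width was 330, 448 and 254 bp.

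The lists held at a region near a core gene are given beside those of the series. All 3 factors held 3 of the 22 regions (13.6%), against 10.9% of the 11236. RFX1 with RFX3 held 10 (45.5%), against 38.3%. RFX1 alone held 3 (13.6%), against 16.9%, and RFX3 alone held 6 (27.3%), against 33.7%. No region near a core gene had RFX2 without both of the others, and such regions were rare in the series. Of the 11236, RFX1 with RFX2 held 16, RFX2 with RFX3 held 3 and RFX2 alone held 10. The small counts near core genes shifted with the settings. RFX1 with RFX3 held 6 regions when a core gene had to be the nearest gene, and 5 in gene bodies only. RFX3 alone held 11 within 100 kb. RFX1 alone held 5 at a fold of at least 4 and 1 in the better-scoring 50% of each list. With each list shortened to its best 1250 peaks, 5 regions were left, at Celsr3, Fzd3, Vangl1, Vangl2 and Prickle2, and none held all 3 lists.

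Most peaks near core genes lay inside a gene and away from gene ends. Near core genes, 75.0% of RFX1 peaks (12 of 16) and 68.4% of RFX3 peaks (13 of 19) lay inside a gene and more than 1 kb from any gene end, against 43.0% and 43.1% of the lists. All 3 RFX2 peaks did, against 41.7%. The rule itself favours such sites, because a window around a gene contains that gene. At gene ends lay 3 RFX1 peaks (18.8%) and 4 RFX3 peaks (21.1%) of those near core genes, against 22.5% and 15.97% of the lists. Of the 38 peaks, 27 had the core gene as the nearest protein-coding gene.

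Set against all 21887 protein-coding genes, a larger share of core genes had an RFX summit inside the gene. An RFX1 summit lay inside or within 50 kb of 9 core genes of 10, against 44.4% of all genes. For RFX2 the count was 3 of 10, against 12.5%, and for RFX3 it was 9 of 10, against 46.2%. Prickle1 was the gene without RFX1, and Celsr2 the gene without RFX3. Strictly inside the gene, RFX1 was found in 7 of 10, against 14.3%, RFX2 in 3, against 3.16%, and RFX3 in 8, against 15.1%. Within 1 kb of a gene end, RFX1 was at 1 of 10, against 9.05%, RFX2 at none, against 2.08%, and RFX3 at 2, against 7.94%. A region of all 3 lists was inside or within 50 kb of 3 of 10, against 12.3%, and inside 3 of 10, against 3.22%.

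Core genes are long, with a median of 60.6 kb against 17.2 kb for all genes, and a longer gene has more room for a summit. Among the 8572 protein-coding genes at least as long as Celsr2, the shortest member, the median was 58.3 kb. In those genes RFX1 had a summit inside 27.1%, RFX2 inside 6.22% and RFX3 inside 29.9%, and a region of all 3 lists was inside 6.28%. The core gene counts of 7, 3, 8 and 3 of 10 stand above these shares too, which were chosen as a yardstick after the data were seen. Core genes had a median of 0.973 regions per 100 kb of gene and flanks, against 0.572 in the long genes and 0.402 in all genes. With 10 genes chosen for their pathway and earlier results of these data known, the counts describe these genes and carry no p-value.

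**Figure D3:**
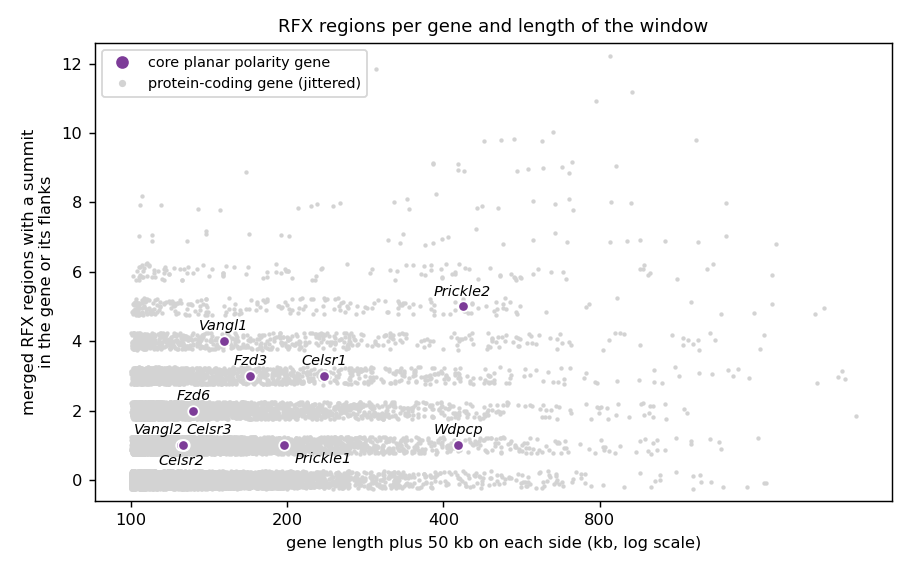
Merged RFX regions inside or within 50 kb of each gene (vertical axis, jittered for the grey points) against the gene length plus flanks in kb (log scale), for the 10 core genes (purple) and 21883 protein-coding genes with at most 12 regions (grey; 4 genes above are not shown). Prickle2 has the most regions of the core genes with 5, and Vangl1 has 4 in a much shorter window.

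Among the core genes the number of regions ran from 1 to 5, with a median of 1.5. Prickle2 had 5, Vangl1 had 4, Fzd3 and Celsr1 had 3 each, and Fzd6 had 2. The other 5 genes had 1 each. Of all protein-coding genes, 4.68% had at least as many regions as Vangl1, 11.3% at least 3 and 52.1% at least 1. A single region, as at Vangl2 or Wdpcp, was therefore no more than most genes had. By density Vangl1 led with 2.65 per 100 kb, followed by Fzd3 with 1.76, Fzd6 with 1.51, Celsr1 with 1.27 and Prickle2 with 1.15, while Wdpcp was lowest with 0.234.

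The peak counts of Prickle2 (RFX1 3, RFX2 1, RFX3 4) were shared by 35 other protein-coding genes. Nearest to it in window length, of 435.4 kb, were Sorbs2 with 420.1 kb, Atp2b2 with 398.8 kb and Hivep3 with 504.3 kb. The likeness is in these counts only, over 3 lists.

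At 13 regions near core genes both an RFX1 and an RFX3 peak were called, and their places in the lists could be set side by side. The RFX3 peak stood higher in its own list at 9 of the 13, against 57.7% of the 5519 such regions of the series. Inside a core gene, the Wdpcp region at a gene end included, it did so at 7 of 8, with Prickle2 at chr6:92670449-92671002 the exception. Over the 9 regions inside any gene and away from its ends it did so at 7, against 59.7% in the series. At the 3 gene end regions, those of Ip6k2, Fbxo16 and Wdpcp, it did so at 1, against 41.9%. At Vangl2 the places were 0.419% for RFX3 and 35.3% for RFX1, and at Celsr3 they were 58.5% for RFX3 and 9.62% for RFX1. By fold, RFX3 was above RFX1 at 7 of the 13 regions, against 45.6% in the series, and at 6 of the 8 inside a core gene. The lists differ in length and in depth that is not known. Neither a place in a list nor a fold therefore measures how much of either factor was bound.

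**Figure D4:**
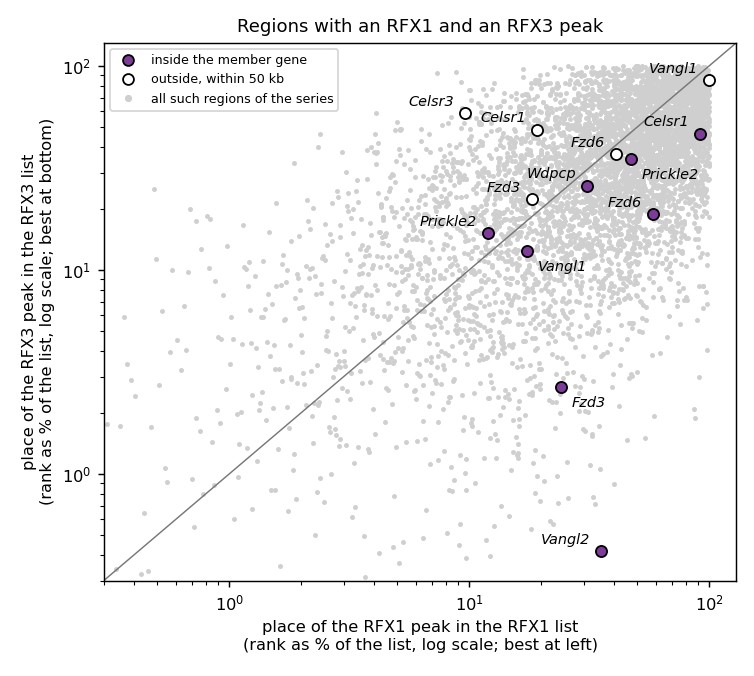
Place of the RFX3 peak in the RFX3 list (vertical, log scale) against the place of the RFX1 peak in the RFX1 list (horizontal, log scale), as rank in percent of the list, for the 13 regions near core genes (filled, inside the gene; open, outside) and for all such regions of the series (grey; 41 with a place under 0.3% are not shown). Points under the diagonal have RFX3 higher in its own list than RFX1, as at Vangl2 and Fzd3.

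The 50 kb limit left out further sites of RFX1 and RFX3. Within 100 kb of a core gene lay 29 RFX3 peaks, against 19 within 50 kb, and 22 RFX1 peaks, against 16. The farthest region within it was the one at Ip6k2, 42330 bp from Celsr3, whose RFX1 peak had a fold of 12.2. Just beyond lay an RFX3 peak 52140 bp from Fzd3 with a fold of 9.56 and a −log10 q of 22.6. The next was 56632 bp from Fzd6, with an RFX3 fold of 8.49 and a −log10 q of 18.8. The site 61841 bp from Celsr3 was at an end of Tmem89 and had an RFX3 fold of 5.06 and a −log10 q of 48.0. Each of these named sites was in a region that also held an RFX1 peak. The nearest sites beyond the limit for Wdpcp (67785 bp), Vangl2 (72471 bp) and Celsr2 (77539 bp) were held by RFX3 alone. Within 100 kb, RFX1 with RFX3 held 15 regions, against 10, and RFX3 alone 11, against 6.

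Of the 40 other planar polarity genes listed, 30 (75.0%) had a region inside or within 50 kb, against 52.1% of all genes and 62.9% of the long genes. A region was inside 12 (30%), against 18.0% of all genes and 34.5% of the long genes. The 40 genes were not filtered by length, and several, such as Fjx1 (2427 bp) and Fzd2 (3628 bp), are shorter than Celsr2. Shares of the long genes given beside these 40 are therefore not matched for length. Of the 12 genes with an internal region, Fuz alone (6320 bp) was shorter than Celsr2. In all they had 75 regions with 128 peaks. RFX1 was near 27 of the 40 (67.5%), against 44.4% of all genes, RFX2 near 12 (30%), against 12.5%, and RFX3 near 27 (67.5%), against 46.2%. Inside the gene, RFX1 was in 11 of the 40 (27.5%), against 14.3% of all genes and 27.1% of the long genes. RFX3 was in 10 (25.0%), against 15.1% of all genes and 29.9% of the long genes. RFX2 was in 5 (12.5%), against 3.16% of all genes and 6.22% of the long genes. Their median of 0.910 regions per 100 kb was close to the 0.973 of the core genes. A region was near 3 of 4 Dishevelled and Diego homologues, 5 of 7 Fat-Dachsous genes, 4 of 5 ciliary effectors, 6 of 7 modifiers, 3 of 6 Wnt ligands and co-receptors, 6 of 6 cytoskeletal effectors, and 3 of 5 other Prickle and Frizzled genes.

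A region of all 3 lists was near 12 of the 40 genes (30%), against 12.3% of all genes. It was inside 5 of them (12.5%), against 3.22% of all genes and 6.28% of the long genes, namely Ankrd6, Daam1, Fat3, Intu and Ror1. Fat3, an atypical cadherin gene, had an RFX3 fold of 36.9 and a −log10 q of 123.279. Ror1, a Wnt co-receptor gene, had an RFX3 fold of 28.4 and a −log10 q of 148.704. Daam1, a formin that acts below Dishevelled, had 2 such regions among its 6. The ciliary effector Intu, which works with Wdpcp, had an RFX1 fold of 11.7 and an RFX3 fold of 9.25, and the Diego homologue Ankrd6 had an RFX1 fold of 10.7.

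For the remaining 7 genes the region of all 3 lists was outside the gene body. At Cplane2, a small GTPase gene of the same ciliary complex as Wdpcp, it was at the gene's own end, with summits at 4 bp (RFX1), 26 bp (RFX2) and 1 bp (RFX3). The folds there were 17.0, 13.2 and 7.90. Near Rock2 the region was at an end of 2410004P03Rik, and near Fjx1 it was between genes. Near Dvl2, Fzd7, Prickle4 and Ptk7 it was inside another gene. Cplane2 and Wdpcp were thus the listed genes with RFX1 and RFX3 summits at their own ends.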

How the data were processed

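Peak calling was done by the authors. Tools in the submitters' processing notes are MACS2 2.0.10.20130520, Bowtie 0.12.7 and CASAVA 1.8.2, with GRCm38 as build and no roles stated. The rule for reproducible peaks and the read depth were not given in the sources used here. For each peak, the deposited fold enrichment is the ratio that the narrow-peak layout gives there. The deposited −log10 q is the authors' q-value after a −log10 transform. The deposited score is the whole part of 10 times that value and was not used further. Apart from the score, the value columns not used number 1 per list, the −log10 p.

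Each summit was placed on 21887 protein-coding genes of RefSeq GRCm38.p6 on assembled chromosomes. A gene end is either annotated end, within 1 kb. Regions are merged peaks sharing at least 1 bp. Promoter windows and their strands came from RefSeq GRCm38.p6, and 6 of the 10 members matched. All 40 other planar polarity genes matched, 1 by synonym (Rsg1 as Cplane2). All members are named with every peak. Other planar polarity genes are named for a region of all 3 lists, at most 12. Further genes are named where they hold or adjoin a peak, or for likeness in peak counts.

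The members and lists were chosen with earlier results of these data known, so no set test was run and counts stand beside the same counts over all genes. Scripts used Python 3.11.15, pandas 2.3.3, numpy 2.4.6 and matplotlib 3.10.9, and the counting was tested on simulated peaks. Alternatives changed the flank, the peak threshold, the list length, the gene assigned, the overlap and the gene end.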

Additional observations from a re-analysis of the deposited data

How the results depend on the processing

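Of 94 values under alternative settings, 69 were within 1.5 times the values above and 25 were not. With a 100 kb flank, RFX3 peaks near core genes numbered 29, against 19. With the gene body only there were 10 RFX1 peaks, 12 RFX3 peaks and 14 regions. The better-scoring 50% of each list gave 10 RFX1 peaks and 14 regions. The best 1250 peaks of each list gave 2 RFX1 peaks near 2 genes, 3 RFX3 peaks near 3 genes, 5 regions and 0 regions of all 3 lists. Within an end of a core gene, RFX3 peaks numbered 2 at 1 kb, against 1 at 500 bp, 1 at listed starts only and 1 with a fold of at least 4. At 5 kb there were 4 RFX1 and 4 RFX3 peaks. The class counts moved as well: RFX1 with RFX3 to 6 by nearest gene and 5 in gene bodies, RFX3 alone to 11 at 100 kb, and RFX1 alone to 5 at a fold of at least 4 and 1 in the better-scoring 50%. These follow from fewer or more peaks or bases counted. Only counts near core genes were recomputed under these settings. The shares of all genes and of long genes were not, so the comparisons with them were not tested under the alternatives. A shared overlap of at least 50% and a 10 kb flank moved no count by more than 1.5 times.

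No paired analysis was possible because each deposited list joins the replicates of its factor. For the same reason no replicate was left out. Depth is unknown, and so is how far each list reaches to weaker sites. Absence of a peak from a list does not show that the factor was absent. The 50 kb rule assigns peaks by distance and does not show which gene a site acts on.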
